A study of Mus musculus with 8 samples.

Results

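The unfolded protein response genes described here are 10 members of the endoplasmic reticulum (ER) stress pathway, of 28712 genes listed in the 2 processed tables of the series. They are Hspa5, Hsp90b1, Dnajb9, Herpud1, Sdf2l1, Pdia4, Xbp1, Creld2, Manf and Hyou1, taken by gene symbol from both tables, and none of the symbols was repeated. They were picked because their levels in these same libraries differed between groups, so their differences are given as a description and support nothing by themselves. RNA came from 4T1 cells, a mouse mammary tumor line labelled as triple-negative breast cancer and kept at 1% O2. In such bulk RNA a change in the cells present and a change in RNA per cell cannot be told apart. The cells received purified single-domain antibodies at 0.5 μg/mL, and each group had 2 libraries. Values were analysed for sdAb#07.81 (24 h), sdAb#07.81 (48 h) and sdAb-Con (48 h), where sdAb#07.81 is directed against the stress protein NUPR1 and sdAb-Con is the control antibody. Per the study, both purified antibodies carried a Flag tag, a C-degron from ornithine decarboxylase (a degradation signal), a Tat sequence and a His tag. The Con group was not analysed here. No control antibody at 24 h was among the groups, so time and antibody cannot be told apart where sdAb-Con (48 h) is compared with sdAb#07.81 (24 h). The labels do not say whether libraries of a group came from separate cultures, so tests measure only the spread between these libraries.

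When misfolded proteins build up in the ER, the sensors IRE1 (encoded by Ern1), PERK (Eif2ak3) and ATF6 start the unfolded protein response. ATF6 and the spliced form of XBP1 are transcription factors that raise the genes of ER chaperones, folding enzymes and degradation factors, while PERK slows translation and raises ATF4 and the factor CHOP (Ddit3). Tumor cells use this response to keep up secretion under low oxygen and nutrient shortage.

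The deposited tables give 1 pooled mean for each gene over the 4 libraries compared, and the read counts of the single libraries were worked back from these means and from which libraries each table holds. Library a of a group is the deeper and library b the shallower, and neither letter is a replicate number from the labels. Counts were recovered for 28446 genes, and the libraries held 13199432 to 16240686 reads in them. Libraries of a group differed beyond counting noise, by a median of 0.128 to 0.149 on the log2 scale in genes with 200 reads or more over both. Epithelial markers were high in every library, with Krt8 between 10076 and 12877 normalized counts, and the immune marker Ptprc was between 0 and 4.38. Pdgfra, a marker of fibroblasts, had 956 and 1246 normalized counts in sdAb#07.81 (24 h), 655 and 627 in sdAb#07.81 (48 h) and 610 and 629 in sdAb-Con (48 h). It was lower in both groups at 48 h than at 24 h (-0.77, adjusted p = 0.00051, and -0.82, adjusted p = 7.3e-05, on the log2 scale, limma), and its part in the differences with 24 h was not tested. Nupr1 RNA, which encodes the target of the antibody, was at 3578 and 2999 normalized counts in sdAb-Con (48 h), 2919 and 2921 in sdAb#07.81 (48 h) and 1554 and 2135 in sdAb#07.81 (24 h). The antibody acts on the protein, so this RNA does not check the treatment.

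Short promoter elements through which ATF6 and XBP1 act are known for several of these genes, and the stretches that hold them are shown to give the members a sequence context. In the 250 bases upstream of the start in RefSeq (GRCm38.p6), the ER stress response element ERSE, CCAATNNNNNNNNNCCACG, was searched on both strands, as were ERSE-II, which is ATTGG and CCACG with any 1 base between them, and the core of the unfolded protein response element, TGACGTG. The promoter table held 8 of the 10 genes, without Manf and Hyou1. ERSE was found in Hspa5, Hsp90b1 and Creld2, against 0.113% of all 32851 promoters, ERSE-II in Herpud1 against 0.0304%, and TGACGTG in Hspa5 against 1.65%. The matches printed do not overlap each other. The windows of Dnajb9, Sdf2l1, Pdia4 and Xbp1 held none of these letters, which says only that they are not in these windows. Capitals mark the matched letters, and each run reads 5′ to 3′ on the strand of its gene.
Hspa5, chr2:34771840-34772089 (plus strand): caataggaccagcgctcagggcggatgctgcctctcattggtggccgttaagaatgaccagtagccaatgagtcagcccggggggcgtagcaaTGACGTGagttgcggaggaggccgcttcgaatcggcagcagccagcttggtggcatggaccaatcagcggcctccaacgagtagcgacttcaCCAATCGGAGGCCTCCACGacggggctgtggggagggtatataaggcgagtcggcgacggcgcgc
Hsp90b1, chr10:86705608-86705686 (minus strand): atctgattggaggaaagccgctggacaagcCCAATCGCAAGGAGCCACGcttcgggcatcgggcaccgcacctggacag
Hsp90b1, chr10:86705503-86705581 (minus strand): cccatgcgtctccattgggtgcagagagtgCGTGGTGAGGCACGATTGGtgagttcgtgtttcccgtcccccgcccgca
Creld2, chr15:88819490-88819568 (plus strand): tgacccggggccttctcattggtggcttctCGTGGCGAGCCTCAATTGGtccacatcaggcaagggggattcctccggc
Herpud1, chr8:94386347-94386417 (plus strand): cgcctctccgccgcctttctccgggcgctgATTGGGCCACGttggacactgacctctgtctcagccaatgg

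Of the 10 genes, those with the most reads were Hspa5 and Hsp90b1, which encode BiP and GRP94, the ER members of the HSP70 and HSP90 families. Hspa5 (ENSMUSG00000026864, chr2:34661982-34667559) had an authors' mean of 177249 normalized counts over the sdAb-Con (48 h) and sdAb#07.81 (48 h) libraries and of 103782 over the sdAb#07.81 (24 h) and sdAb#07.81 (48 h) libraries. Its counts per library could not be recovered, so no error is given for it. The ratio of these means was 1.71 as deposited and 1.76 on the scale of the libraries that both tables hold. Because sdAb#07.81 (48 h) enters both means, Hspa5 in sdAb-Con (48 h) averaged at least 153295 normalized counts and was at least 1.76-fold its level in sdAb#07.81 (24 h). Of 13629 genes with a mean of at least 10 in both tables, 0.697% had a higher ratio of means.

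Hsp90b1 (ENSMUSG00000020048, chr10:86526073-86541373) had 52 sets of counts that gave its means, and its values are those of the 1 set in which replicates lie within 0.5 of each other on the log2 scale. That limit was set after sets had been seen, and it makes the spread between replicates look small, so Hsp90b1 was left out of every fit. On this reading it had 78693 and 64485 normalized counts in sdAb-Con (48 h), 71257 and 68151 in sdAb#07.81 (48 h) and 17190 and 20922 in sdAb#07.81 (24 h). The libraries at 48 h overlapped between antibodies, and all of them lay above both libraries at 24 h, by 3.66-fold for sdAb#07.81 (48 h) and 3.76-fold for sdAb-Con (48 h).

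Hyou1 and Pdia4 encode further folding factors, an HSP70-related chaperone and nucleotide exchange factor and a protein disulfide isomerase. Hyou1 (ENSMUSG00000032115, chr9:44290787-44303666) had 9546 and 9456 normalized counts in sdAb-Con (48 h), 8699 and 8186 in sdAb#07.81 (48 h) and 2290 and 2080 in sdAb#07.81 (24 h). The groups did not overlap, and sdAb#07.81 (24 h) lay far below both groups at 48 h. Pdia4 (ENSMUSG00000025823, chr6:47773075-47790364) had 11084 and 11669 normalized counts in sdAb-Con (48 h), 9622 and 8503 in sdAb#07.81 (48 h) and 2163 and 2510 in sdAb#07.81 (24 h). Its groups stood in the same order without overlap.

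Dnajb9 and Sdf2l1 encode helpers of BiP, an ER J-domain protein and an ER-resident partner of J-domain proteins. Sdf2l1 (ENSMUSG00000022769, chr16:16948002-16950247) had 1808 and 1732 normalized counts in sdAb-Con (48 h), 1170 and 1372 in sdAb#07.81 (48 h) and 229 and 200 in sdAb#07.81 (24 h), where 250 and 209 reads stand behind the values. Of the 9 genes with values per library it had the largest ratio between group means (8.25-fold, sdAb-Con (48 h) over 24 h), with mean levels of 1770 ± 53.4, 1271 ± 143 and 215 ± 21.0 (SD, n = 2) in these groups. Dnajb9 (ENSMUSG00000014905, chr12:44252342-44257109) had 1390 and 1181 normalized counts in sdAb-Con (48 h), 1346 and 1261 in sdAb#07.81 (48 h) and 409 and 352 in sdAb#07.81 (24 h). The groups at 48 h overlapped, and those at 24 h lay below both.

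Creld2 and Manf encode ER-resident proteins that stressed cells secrete. Manf (ENSMUSG00000032575, chr9:106715511-106769178) had 13220 and 12786 normalized counts in sdAb-Con (48 h), 10272 and 10445 in sdAb#07.81 (48 h) and 1799 and 1647 in sdAb#07.81 (24 h). Creld2 (ENSMUSG00000023272, chr15:88703849-88710886) had 1903 and 1984 normalized counts in sdAb-Con (48 h), 1480 and 1420 in sdAb#07.81 (48 h) and 353 and 369 in sdAb#07.81 (24 h). In both genes sdAb-Con (48 h) was highest and sdAb#07.81 (24 h) lowest, with no overlap.

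Xbp1 encodes the transcription factor of the IRE1 arm, and Herpud1 an ER membrane protein of ER-associated degradation (ERAD). Xbp1 (ENSMUSG00000020484, chr11:5470659-5475893) had 3029 and 3161 normalized counts in sdAb-Con (48 h), 2760 and 2696 in sdAb#07.81 (48 h) and 1206 and 996 in sdAb#07.81 (24 h). The groups did not overlap, and the counts do not tell spliced from unspliced Xbp1 RNA. Herpud1 (ENSMUSG00000031770, chr8:95113066-95122005) had 2496 and 3039 normalized counts in sdAb-Con (48 h), 2655 and 2436 in sdAb#07.81 (48 h) and 1099 and 1162 in sdAb#07.81 (24 h). Its libraries at 48 h overlapped, and both at 24 h were lower. The positions of all 10 genes are given as the tables list them, with no build named there.

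**Figure D1:**
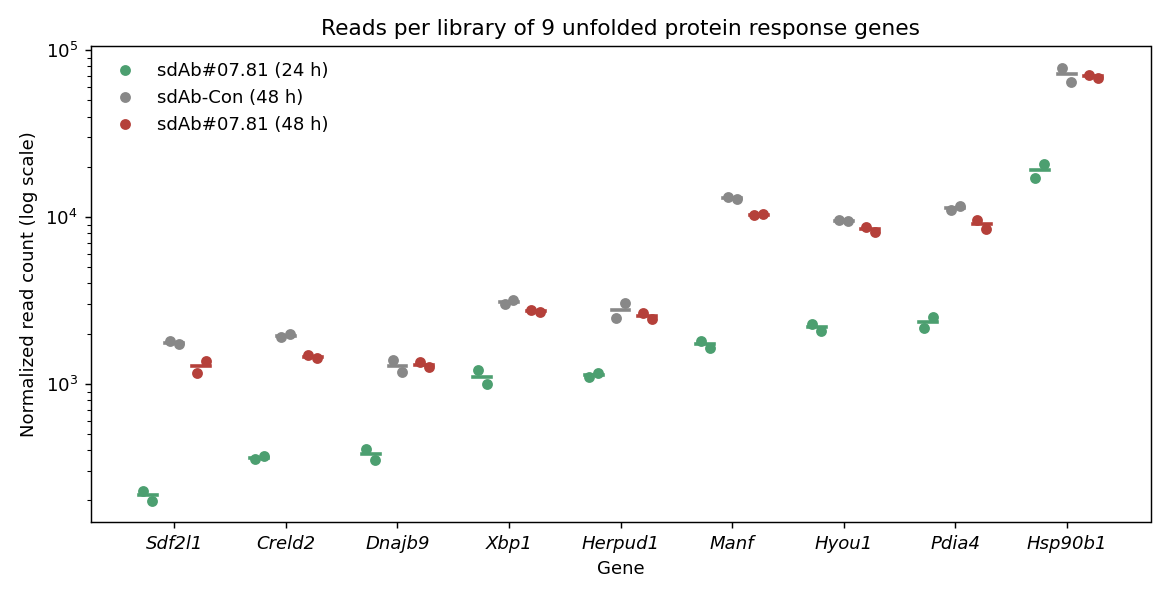
Normalized read count (log scale) of 9 unfolded protein response genes in each library of 3 groups, with points for libraries and short lines for group means. Both sdAb#07.81 (24 h) libraries lie below every library at 48 h in all 9 genes, from Sdf2l1 at 229 and 200 to Hsp90b1 at 17190 and 20922, and Hsp90b1 rests on 1 chosen set of counts.

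Per kilobase of the longest annotated transcript, in sdAb-Con (48 h) Hsp90b1 had, on its chosen set of counts, the highest level of the 9 genes at 22219 normalized counts per kb, followed by Manf at 5787, Pdia4 at 4742 and Hyou1 at 1929. Sdf2l1 came next at 1598, then Xbp1 at 1454, Creld2 at 1423 and Herpud1 at 1418, and Dnajb9 was lowest at 522. Neighbours in this order did not overlap between libraries, except Xbp1 with Creld2 and Creld2 with Herpud1. In sdAb#07.81 (24 h) the order differed in part: Pdia4 at 974 stood above Manf at 767, and Herpud1 at 579 and Xbp1 at 517, whose libraries overlapped, stood above Hyou1 at 444. Creld2 at 264, Sdf2l1 at 194 and Dnajb9 at 155 were the lowest. In sdAb#07.81 (48 h) the first 4 genes stood in the same order as in sdAb-Con (48 h), and Herpud1 overlapped Xbp1 and Sdf2l1 overlapped Creld2 below them. Hspa5 is outside this order. At 153295 or more normalized counts in sdAb-Con (48 h) over 3672 bases, it would stand above Hsp90b1 there.

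**Figure D2:**
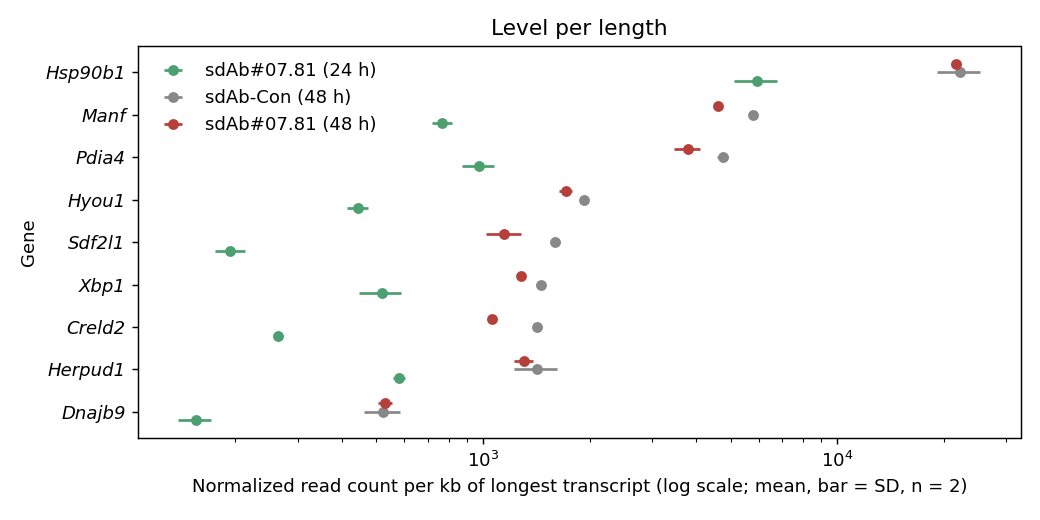
Level of the 9 genes per kb of longest transcript (log scale), with points for group means and bars for the SD of 2 libraries. Of these 9, Hsp90b1 leads in every group, at 22219 normalized counts per kb in sdAb-Con (48 h) and 5914 in sdAb#07.81 (24 h), and Dnajb9 is lowest in each. Hspa5 is not shown because its counts per library were not recovered.

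The comparison of sdAb#07.81 (48 h) with sdAb-Con (48 h) asks what the antibody changes at this time. The levels of the 8 genes with recovered counts were between 0.718 and 1.01 of those with sdAb-Con. Sdf2l1 had the lowest value, a log2 fold change of -0.48 (95% interval -0.71 to -0.24), followed by Creld2 at -0.42 (-0.64 to -0.19), Pdia4 at -0.33 (-0.55 to -0.10) and Manf at -0.32 (-0.54 to -0.10). Xbp1 stood at -0.18 (-0.40 to 0.04), Hyou1 at -0.17 (-0.39 to 0.05), Herpud1 at -0.11 (-0.34 to 0.12) and Dnajb9 at 0.03 (-0.21 to 0.27). These intervals come from limma's moderated fit across all genes and are not adjusted for the choice of genes. Of the 8 genes, 4 were lower at an adjusted p under 0.05, beside 6.27% of 13776 genes tested that were lower and 9.03% that were higher, and nothing is read from this count because the genes were chosen on this contrast. Of the 8 genes, 6 had groups that did not overlap, all with lower levels in sdAb#07.81 (48 h), beside 31.1% of the genes tested that did so and 27.7% that did so with higher levels. Across genes, the log2 fold change moved with transcript length (Spearman 0.449 over 13627 genes, which are not independent replicates), and the part of length in the members' values was not tested separately. With the trend with length, GC content and level removed, the median of the 8 genes went from -0.25 to -0.12. In that fit 0 of the 8 passed with limma, 0 at an unadjusted p under 0.05. Over all genes 571 passed in it, beside 2108 in the main fit. Without sdAb#07.81 (48 h) a, the median of the 8 genes was -0.26. Upper-quartile scaling moved the calls over all genes from 1244 higher and 864 lower to 1441 and 483. With this scaling and with limma-trend in place of voom, 2 of 8 passed, namely Sdf2l1 and Creld2. Over all genes 1924 and 2075 passed in these fits, beside 2108. Leaving out sdAb-Con (48 h) a or b, or sdAb#07.81 (48 h) b, gave medians of -0.28, -0.24 and -0.20. A fit with a library left out rests on 1 library in a group, so only medians are given for these 8 genes.

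The comparison of sdAb#07.81 at 48 h with 24 h asks how expression changes with time under the antibody. All 8 genes were higher at 48 h, by 2.25-fold (Herpud1) to 6.01-fold (Manf). The log2 fold changes were 2.59 (95% interval 2.36 to 2.82) for Manf, 2.56 (2.23 to 2.90) for Sdf2l1, 2.01 (1.72 to 2.29) for Creld2 and 1.96 (1.72 to 2.20) for Pdia4. Hyou1 stood at 1.95 (1.72 to 2.18), Dnajb9 at 1.78 (1.48 to 2.07), Xbp1 at 1.31 (1.05 to 1.58) and Herpud1 at 1.17 (0.93 to 1.42). The intervals of Xbp1 and Herpud1 ended below the start of those of Manf, Sdf2l1, Creld2, Pdia4 and Hyou1. All 8 passed the threshold, beside 19.9% of 13872 genes tested that were higher and 21.2% that were lower, and nothing is read from this count either. All 8 had groups that did not overlap, all higher at 48 h, beside 34.8% of the genes tested, and 36.4% lay the other way. The count was 8 of 8 in each of the 11 alternatives run.

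The third comparison, sdAb-Con (48 h) with sdAb#07.81 (24 h), shares its libraries with the other two, so its values are set beside theirs without a test of likeness. The 8 genes were 2.45-fold (Herpud1) to 8.25-fold (Sdf2l1) higher in sdAb-Con (48 h). The log2 fold changes were 3.04 (2.73 to 3.35) for Sdf2l1, 2.92 (2.70 to 3.13) for Manf, 2.43 (2.16 to 2.69) for Creld2, 2.29 (2.05 to 2.52) for Pdia4 and 2.12 (1.90 to 2.34) for Hyou1. Dnajb9 stood at 1.75 (1.47 to 2.04), Xbp1 at 1.50 (1.25 to 1.74) and Herpud1 at 1.28 (1.03 to 1.54). Across genes, this log2 fold change moved with transcript length as well (Spearman -0.325 over 13693 genes, which are not independent replicates). With the trend with length, GC content and level removed, the 8 genes ran from 1.02 to 2.63, with a median of 2.07 in place of 2.20. The part of length was not tested separately. All 8 passed, beside 25.2% of 13853 genes tested that were higher and 25.9% that were lower, and the groups of all 8 did not overlap, beside 37.2% of the genes tested, and 37.5% lay the other way. The control antibody at 48 h thus also stood above sdAb#07.81 at 24 h.

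**Figure D3:**
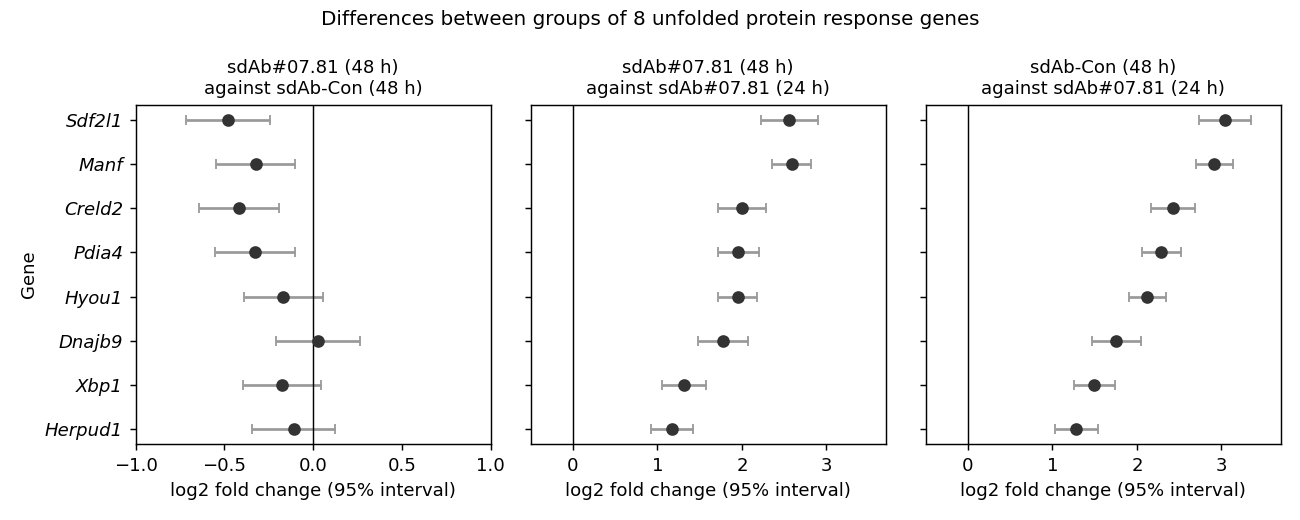
log2 fold change of 8 unfolded protein response genes in 3 comparisons, with points for the fitted difference and bars for its 95% interval, and a narrower axis in the left panel. Between antibodies at 48 h the values run from -0.48 to 0.03, and against sdAb#07.81 (24 h) from 1.17 to 3.04.

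Other genes of the pathway were taken from 6 lists of chaperones, disulfide enzymes, ERAD factors, sensors, genes of the PERK arm and translocation or secretion factors, chosen with earlier results of these data known. They name 63 listed genes, of which 56 were tested. Calr, Canx, Pdia3, Pdia6 and Ssr3 were too abundant for their counts to be recovered, and Clgn and Derl3 were below the minimum level.

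Against sdAb-Con (48 h), 12 of the 56 genes fell and 1 rose in sdAb#07.81 (48 h), beside 6.27% of all genes tested that were lower and 9.03% that were higher. Their median log2 fold change was -0.17 beside -0.02 over all genes tested. In the PERK arm 4 of 8 fell: Chac1, a glutathione-degrading enzyme (-0.61, adjusted p = 0.000992), Ddit3, the factor CHOP (-0.60, adjusted p = 0.000736), Ppp1r15a, which reverses the translation block (-0.50, adjusted p = 0.0102), and Trib3, a pseudokinase (-0.42, adjusted p = 0.00952). Ddit3 had 8994 and 7404 normalized counts in sdAb-Con (48 h) and 4946 and 5790 in sdAb#07.81 (48 h), so the groups did not overlap. Sesn2, the highest of this list, was at -0.17. With the trend with length, GC content and level removed, 0 of the 8 passed with limma, 3 at an unadjusted p under 0.05, and the median of the list went from -0.37 to -0.15. Leaving out a library gave -0.80 to -0.21 for Ppp1r15a, which no longer passed without sdAb-Con (48 h) a, with no filter or in the fit over the 3 groups. Trib3 no longer passed without sdAb-Con (48 h) b (-0.35) or sdAb#07.81 (48 h) a (-0.39).

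Of the 11 translocation and secretion genes tested, 4 fell, namely Sec61g of the translocation channel (-0.56, adjusted p = 0.00847), the ER retention receptors Kdelr3 (-0.40, adjusted p = 0.0260) and Kdelr2 (-0.39, adjusted p = 0.0172) and the signal peptidase subunit Spcs1 (-0.37, adjusted p = 0.0367), and Sec63 was highest at 0.22. Of 8 chaperones, Cnpy2 (-0.48, adjusted p = 0.00930) and Cnpy3 (-0.39, adjusted p = 0.0262) fell, and Hspa13 was highest at 0.13. Of 9 disulfide enzymes, the isomerase P4hb fell (-0.48, adjusted p = 0.00536), and Ero1b was highest at 0.18. Of 6 sensors and their proteases, Atf6b, a relative of ATF6, fell (-0.39, adjusted p = 0.0437), and Atf6 was highest at 0.22. Of 14 ERAD genes 1 rose, Edem3, which trims mannose from misfolded glycoproteins (0.47, adjusted p = 0.00742), and Ube2g2 was lowest at -0.31. These counts by list stand beside the 6.27% of all genes tested that were lower and the 9.03% that were higher, and a single call among 14 ERAD genes is not above the latter share. With the trend with length, GC content and level removed, 2 of the 56 passed, both lower, namely Erp29 and Ssr1, and none of the 13 named above did. Without sdAb#07.81 (48 h) a 3 passed, all lower. Without sdAb-Con (48 h) a, 5 passed, all lower. Of the 13 genes, Chac1 and Ddit3 passed with each library left out in turn, and the other 11 each lost their call without at least 1 library. Leaving out a library gave -0.89 (without sdAb#07.81 (48 h) b) to -0.22 (without sdAb#07.81 (48 h) a) for Sec61g and, without the same libraries, -0.56 to -0.18 for Spcs1. It gave -0.55 (without sdAb-Con (48 h) b) to -0.25 (without sdAb-Con (48 h) a) for Kdelr3 and -0.56 (without sdAb-Con (48 h) a) to -0.23 (without sdAb-Con (48 h) b) for Atf6b. Atf6b passed in 1 of these 4 cases, and it also lost its call with total count scaling, upper-quartile scaling, no filter, the fit over the 3 groups and the trend removed. With upper-quartile scaling or with no filter, 7 fell and 1 rose, and in the fit over the 3 groups 8 fell and 1 rose.

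From 24 h to 48 h of sdAb#07.81, 34 of the 56 genes rose and 3 fell, beside 19.9% of all genes tested that were higher and 21.2% that were lower, shares that also stand beside the counts by list. Their median log2 fold change was 0.54 beside -0.01 over all genes tested. In the PERK arm 6 of 8 rose, led by the transcription factor Atf3 (3.08, adjusted p = 2.05e-09), and Sesn2 was lowest at -0.32, passing as lower without sdAb#07.81 (24 h) a (-0.50). Ddit3 rose as well (2.57, adjusted p = 3.25e-10). Atf4 did not pass and was lower at 48 h (-0.26, adjusted p = 0.0692, limma). In sdAb-Con (48 h) against sdAb#07.81 (24 h) it was at -0.08 and did not pass either. Of 14 ERAD genes 8 rose, with Selenos, an ER membrane selenoprotein, highest at 2.04 and Vcp lowest at -0.09. Of 8 chaperones 5 rose, namely Sil1, a nucleotide exchange factor of BiP (1.67, adjusted p = 2.59e-07), Dnajc3 (1.33), Dnajb11 (1.23), Cnpy3 (0.60) and Sdf2 (0.40), while Dnajc10, a disulfide reductase, fell (-0.47, adjusted p = 0.00237). Of 9 disulfide enzymes 6 rose, with the oxidase Ero1b highest (1.61, adjusted p = 1.06e-07), while its relative Ero1a fell (-0.38, adjusted p = 0.0120). Of 11 translocation and secretion genes 8 rose, with the COPII coat gene Sec24d highest at 1.00 and Ssr1 lowest at 0.08. Of 6 sensors and their proteases, Eif2ak3 rose (0.57, adjusted p = 0.00528) and the protease gene Mbtps1 fell (-0.66, adjusted p = 0.000333). Without sdAb#07.81 (48 h) b, Eif2ak3 (0.54) no longer passed. Ero1a no longer passed without sdAb#07.81 (48 h) a (-0.27), without sdAb#07.81 (24 h) b (-0.31) or in the fit over the 3 groups (-0.38). Sdf2 no longer passed without sdAb#07.81 (48 h) b (0.23), without sdAb#07.81 (24 h) b (0.37), with no filter (0.40) or with the trend removed (0.33).

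In sdAb-Con (48 h) against sdAb#07.81 (24 h), 39 of the 56 genes were higher and 3 lower at the threshold, beside 25.2% and 25.9% of all genes tested. Their median log2 fold change was 0.71 beside 0.0013 over all genes tested. The lower genes were Dnajc10 (-0.40, adjusted p = 0.00315), Mbtps1 (-0.69, adjusted p = 7.19e-05) and Mbtps2 (-0.51, adjusted p = 0.001), and the sensor gene that was higher was Eif2ak3 (0.62, adjusted p = 0.00129). With the trend removed, Mbtps2 no longer passed (-0.22). The lowest of the other lists were Sesn2 at -0.15, Ube2j1 at -0.01, Ero1a at -0.0024 and Ssr1 at 0.23, and Ero1a and Ube2j1 turned positive under several alternatives. Ero1a passed as lower without sdAb-Con (48 h) a (-0.41, adjusted p = 0.0268, limma) and as higher without sdAb-Con (48 h) b (0.41, adjusted p = 0.0211, limma), so 1 library decided its direction. Ssr1 passed as higher with total count scaling (0.27) and with the trend removed (0.64). The highest were Atf3 at 3.30, Selenos at 2.27, Sil1 at 1.78, Pdia5 at 1.54 and Kdelr3 at 1.17.

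**Figure D4:**
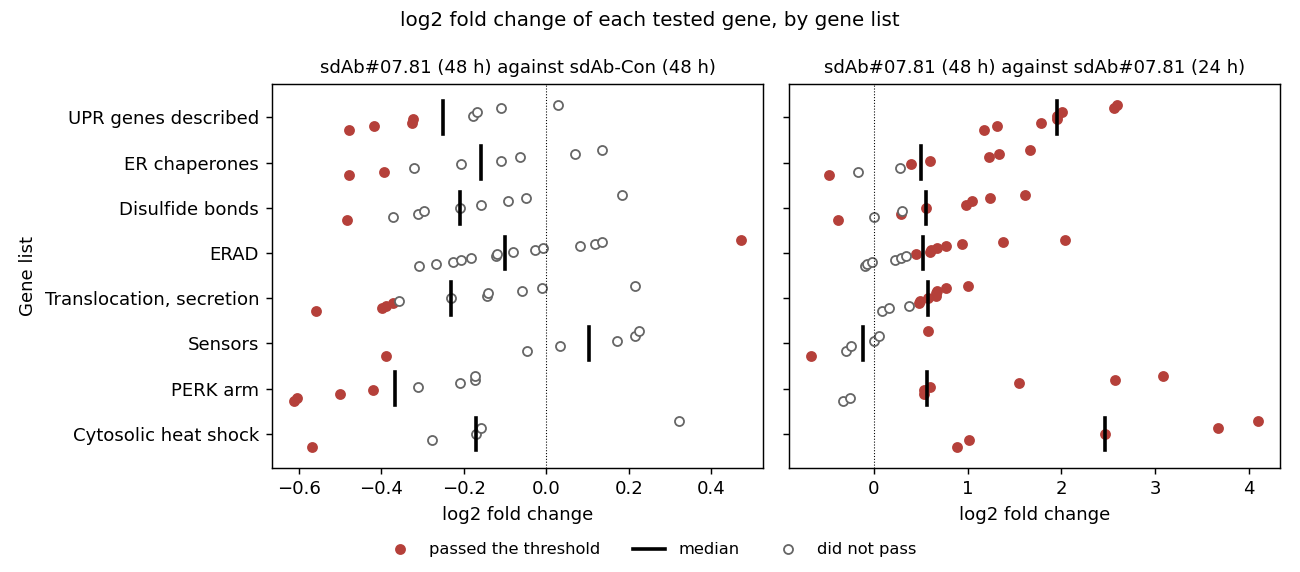
log2 fold change of each tested gene by list in 2 comparisons (UPR is the unfolded protein response), with filled points for genes at an adjusted p under 0.05, open points for the others and a vertical bar for the list's median. Between antibodies at 48 h the medians lie between -0.37 (PERK arm) and 0.10 (sensors), and from 24 h to 48 h between -0.12 (sensors) and 2.47 (cytosolic heat shock).

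Heat shock genes of the cytosol and mitochondria were higher at 48 h as well. Of 10 such genes 5 could be tested, and all 5 rose, beside 19.9% of all genes tested, from Hspe1 (0.89, adjusted p = 6.72e-05) and Bag3 (1.01, adjusted p = 3.5e-05) to Hsph1 (2.47, adjusted p = 3.25e-10), Hspa1a (3.67, adjusted p = 0.000124) and Dnajb1 (4.10, adjusted p = 4.15e-12). Hspa1a has a near-identical copy, Hspa1b, and how reads that match both were counted was not checked, so the value of Hspa1a is uncertain. It also rests on 1 and 4 reads in sdAb#07.81 (24 h), and leaving out a library gave 2.84 (without sdAb#07.81 (24 h) a) to 4.48 (without sdAb#07.81 (24 h) b). Dnajb1 had 841 and 671 normalized counts in sdAb#07.81 (24 h), 12239 and 13534 in sdAb#07.81 (48 h) and 25833 and 9496 in sdAb-Con (48 h). The libraries of sdAb-Con (48 h) thus stood apart from each other in this gene, as they did in Atf3 with 11413 and 5402. Against sdAb-Con (48 h), Hspe1 fell (-0.57, adjusted p = 0.00567) and the other 4 did not pass, with Hspa1a highest at 0.32, beside 6.27% of all genes tested that were lower. Hspe1 no longer passed with the trend removed (-0.34), without sdAb-Con (48 h) a (-0.29) or without sdAb#07.81 (48 h) a (-0.39). Between antibodies at 48 h, the median of the 5 was 0.41 without sdAb-Con (48 h) a and -0.74 without sdAb-Con (48 h) b. In sdAb-Con (48 h) against sdAb#07.81 (24 h) all 5 were higher, beside 25.2% of all genes tested. The median there was 2.06 without sdAb-Con (48 h) a and 3.21 without sdAb-Con (48 h) b. The part of the heat shock genes in the members' values was not tested.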

How the data were processed

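The authors sequenced 4T1 RNA as paired ends on an Illumina NovaSeq, and submitters' notes name cutadapt 1.9.1, HISAT2 2.0.1 and HTSeq 0.6.1. They also name the human build GRCh38.p14, although gene IDs and positions are mouse, so no build is given for positions in the tables. The authors deposited, for each of 2 comparisons, 1 signal per gene, the mean over 4 libraries of read counts divided by size factors. Their tables also hold fold changes, errors and p-values of the authors' own comparisons, which were not used.

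The plan assumed counts per library and no test without them. The tables hold none, but a mean printed to 15 digits is a sum of whole counts times a step for each library. The steps are the means of genes with 1 read. Libraries whose 1-read genes all appear in both tables were taken as sdAb#07.81 (48 h), the group both tables compare, and the others as the group named by their table alone. The group of a library is thus an inference from the tables and not a label. Lattice reduction gave 1 solution for 13984 of 13984 genes with a mean of 10 to 10000 and for 122 of 231 above, while 157 genes under 10 had none. A first attempt left some genes, Dnajb9, Creld2 and Manf among them, without a solution. The steps were then refined on 2121 genes and the tolerance set to the rounding of the last digit. The unresolved genes are outside every fit.

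Counts were scaled by the median of ratios. Genes with a mean of at least 10 were tested with limma 3.58.1 (voom, R 4.3.3) and Benjamini-Hochberg adjustment over all genes at 0.05, on the 4 libraries compared or, for sdAb-Con (48 h) against sdAb#07.81 (24 h), on all 6. This test, the recovery and most alternatives were chosen after the tables were seen, in place of the planned count test. Recovery and fit were also run on simulated data, whose outcome is not given here. The simulated counts of the fit held no trend with length, so nothing about these data is concluded from them. The trend alternative removes a polynomial of degree 3. Members and lists were chosen with earlier results of these data known. Named genes were all members and, of each list, the highest, the lowest and the genes that a count of 5 or fewer covers. Ddit3 from 24 h to 48 h, Atf4 against 24 h and the higher members of lists with larger counts were added after values were seen. Lengths are of the longest GENCODE transcript.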

Additional observations from a re-analysis of the deposited data

How the results depend on the processing

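No paired analysis was possible because the recovered libraries carry no replicate number. The planned count tests were not run, and the recovered counts were fitted with limma voom in their place. Where a library is left out, the lone library of its group is assumed to vary like the others.

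Genes called between the antibodies at 48 h numbered 2108, and 1054 with no filter, 1364 in the fit over the 3 groups, 571 with the trend with length, GC content and level removed and 458 to 2269 leaving out a library (458 without sdAb#07.81 (48 h) a). From 24 h to 48 h they numbered 5704, and 3645 to 5606 leaving out a library. Against sdAb#07.81 (24 h), sdAb-Con (48 h) gave 7085, and 5036 to 6917 leaving out a library. Upper-quartile scaling moved the split between antibodies from 1244 higher and 864 lower to 1441 and 483. For sdAb-Con (48 h) against sdAb#07.81 (24 h) it moved 3491 higher and 3594 lower to 2995 and 4071. The Hspa5 ratio of means was 1.71, and 1.76 on the scale of the shared libraries and with a median ratio of 1.

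Between antibodies at 48 h the sign turned with the trend removed for Dnajb9 (-0.022), Herpud1 (0.10), Xbp1 (0.016) and Hspa13 (-0.061), none of which passed. Leaving out a library gave -0.093 to 0.14 for Dnajb9, -0.26 to 0.027 for Herpud1 and -0.56 to 1.24 for Hspa1a. For sdAb-Con (48 h) against sdAb#07.81 (24 h), Ero1a was 0.038 with total count scaling, 0.0062 with no filter, 0.0084 in the fit of both groups alone and 0.11 with the trend removed, and Ube2j1 was 0.030 with total count scaling, 0.0027 in the fit of both groups alone and 0.049 with the trend removed. Leaving out a library gave -0.41 (without sdAb-Con (48 h) a) to 0.41 (without sdAb-Con (48 h) b) for Ero1a, both past the threshold, -0.11 to 0.083 for Ube2j1 and -0.32 to 0.0053 for Sesn2. The causes were not tested. In both comparisons with 24 h, the 8 unfolded protein response genes kept their direction and side of the threshold in every alternative run. Between antibodies at 48 h their 88 values under alternatives held 6 that turned sign. Of the 4 genes that passed there, 0 passed with the trend removed and 2 with upper-quartile scaling or limma-trend. In the fit over the 3 groups 3 passed, and with total count scaling, no filter or a mean of at least 100 all 4 did. The other 4 genes had no call to lose.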
